A study of Mus musculus with 12 samples.

Results

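The 9 genes described here make up the core of the Indian hedgehog and PTHrP signalling loop of cartilage, and they were chosen by symbol from the 14712 genes of the deposited expression table, where all 9 are listed. They are the ligands Ihh and Pthlh, the receptors and cell-surface binders Pth1r, Ptch1, Hhip and Gas1, and the transcription factors Gli1, Gli2 and Gli3. RNA was sequenced from cartilage cut by laser capture from frozen sections of knees of mice aged 3 months, in 12 libraries. Sox9 is a transcription factor of chondrocytes, Sox8 is a close relative, and the series compared articular cartilage and growth plate with and without a Cre recombinase that acts on their floxed alleles. Each tissue had 3 control libraries without Cre, which were Sox9fl/fl at day 7, Sox9fl/fl at day 14 and Sox8fl/fl Sox9fl/fl at day 14. Each tissue also had 3 mutant libraries of the same floxed alleles and days that carried AcanCreERT2/+, an inducible Cre placed in 1 copy of Acan, the aggrecan gene that chondrocytes express.

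All 12 libraries therefore share the floxed Sox9 alleles, and those of the Sox9 sets also carry a reporter, R26tdT/+, by the column headers alone. When the count of days began and which agent induced the Cre are unstated in the labels. There was 1 library for each genotype, day and tissue, so the 3 libraries of a group differ in day or in floxed alleles and are not repeats of 1 condition. No label ties a captured region to an animal. Some regions may share one, pooling of animals is unstated, and every p-value below may then be too small.

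Values are NRPKM, RPKM (reads scaled to transcript length and library size) as further normalised by the authors, and none lies below 1, so a gene at 1 is at the lowest value the table holds. Summed values of a library ran from 488389 to 1350275, and sequencing depth is unknown. Sox9 was lower in the mutant in 5 of 6 matched pairs and Sox8 in 6 of 6. The exception was the articular library labelled Sox8 Sox9 mutant, where Sox9 stood at 282 against 213 in its control, so directions drawn from that library go with a label its Sox9 level does not bear out. The Sox9 falls differed in size. In the growth plate Sox9 went from 314 to 236 at day 7, 335 to 148 at day 14 and 308 to 36.0 in the Sox8 Sox9 set. In the articular Sox9 sets it went from 408 to 304 and from 349 to 309. Sox8 also fell in the Sox9 sets, where it was not floxed, so its fall does not mark out the Sox8 Sox9 mutants. The table gives 1 value per gene, which may include reads outside the floxed part. The tissue labels matched their defining markers in the controls: Prg4, the lubricin gene of the joint surface, was 24374 to 32446 in articular cartilage and 3.61 to 36.4 in the growth plate, while Col2a1, which encodes type II collagen, was 313 to 451 and 13921 to 21242. Col10a1, the collagen gene of hypertrophic chondrocytes, was 1284 to 4329 in the articular controls.

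In growing cartilage, chondrocytes that leave the proliferating columns secrete Indian hedgehog, which binds Ptch1 and so frees the membrane protein Smo to act on the Gli transcription factors. Hedgehog signalling also raises Pthlh, which encodes the secreted peptide PTHrP, at the ends of the bone, and PTHrP acts through the receptor Pth1r on chondrocytes to delay hypertrophy. Ptch1, Hhip and Gli1 are widely used as target genes of hedgehog signalling, and Ptch1 and Hhip limit it by binding the ligand, while Gas1, Cdon and Boc encode co-receptors that help the ligand bind.

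Promoter sequences are shown for the 5 genes that differed between growth plate mutants and controls, of which 4 were lower and 1, Gas1, was higher in mutants. Each is the 250 bases before the annotated start, written 5′ to 3′ on the strand of the gene, from RefSeq on GRCm38.p6. The start used for Ptch1 lies inside the span of the gene given below. For Hhip and Gas1 no GENCODE M21 transcript of the gene held the bases just after the window. Of the 9 genes, 8 had a promoter entry and Gli1 is named only. All 5 lie on the minus strand: Ihh at chr1:74951673-74951922, Pth1r at chr9:110747146-110747395 (the first of 3 entries), Ptch1 at chr13:63565736-63565985, Hhip at chr8:80058009-80058258 and Gas1 at chr13:60177536-60177785. Capitals mark the letters CCACCC, the core of the motif bound by Gli proteins, or ACAATG or ACAAAG, the core bound by Sox proteins, on either strand.
Ihh: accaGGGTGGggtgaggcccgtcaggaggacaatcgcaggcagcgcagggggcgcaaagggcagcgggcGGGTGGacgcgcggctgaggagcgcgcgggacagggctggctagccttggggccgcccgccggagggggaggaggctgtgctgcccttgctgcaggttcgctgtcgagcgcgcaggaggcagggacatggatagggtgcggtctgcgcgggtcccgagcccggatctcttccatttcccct
Pth1r: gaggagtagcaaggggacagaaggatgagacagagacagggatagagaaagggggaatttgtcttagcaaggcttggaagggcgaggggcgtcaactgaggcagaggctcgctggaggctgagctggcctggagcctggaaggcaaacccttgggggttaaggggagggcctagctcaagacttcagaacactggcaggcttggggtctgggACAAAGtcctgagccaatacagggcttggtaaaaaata
Ptch1: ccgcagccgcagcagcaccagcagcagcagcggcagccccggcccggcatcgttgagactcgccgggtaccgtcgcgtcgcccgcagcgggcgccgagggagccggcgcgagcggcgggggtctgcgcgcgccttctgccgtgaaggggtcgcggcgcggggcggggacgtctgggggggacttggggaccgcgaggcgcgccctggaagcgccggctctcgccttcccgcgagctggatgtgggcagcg
Hhip: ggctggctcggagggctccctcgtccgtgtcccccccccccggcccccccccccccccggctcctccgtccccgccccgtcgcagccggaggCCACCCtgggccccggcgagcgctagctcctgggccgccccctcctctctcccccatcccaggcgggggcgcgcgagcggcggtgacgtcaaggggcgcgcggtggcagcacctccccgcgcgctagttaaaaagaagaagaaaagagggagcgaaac
Gas1: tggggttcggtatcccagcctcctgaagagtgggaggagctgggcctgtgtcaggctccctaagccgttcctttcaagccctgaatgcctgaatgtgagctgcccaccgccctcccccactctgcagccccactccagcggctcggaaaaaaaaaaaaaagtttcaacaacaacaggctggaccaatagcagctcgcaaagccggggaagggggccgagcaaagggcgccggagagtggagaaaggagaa
The longer Gli motif GACCACCCA, which contains the core, was found in none of the windows of the 8 genes and in 0.225% of 32851 promoters of the same length. The core was in the windows of 5 of the 8 genes, Ihh, Pthlh, Hhip, Gli2 and Gli3, and 28.1% of all promoters hold it. It stood 246 and 181 bases before the start of Ihh and 158 bases before that of Hhip. The Sox core occurred 38 bases before the start in the Pth1r window shown, was in neither of the other Pth1r entries nor in any window of the other 7 genes, and 25.2% of promoters hold it. These matches are a description of the letters only.

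The first comparison asked where each gene is expressed in controls. Growth plate held more of the ligand Ihh and of the PTHrP receptor gene Pth1r than articular cartilage, and articular cartilage held more of the co-receptor gene Gas1. These 3 of the 9 genes were called in a limma fit across all genes at an adjusted p under 0.05, where 12.9% of all genes were called (4.26% higher in growth plate and 8.63% lower). The groups of 3 did not overlap for 6 of the 9 genes, against 28.3% of all genes (9.31% higher and 19.0% lower). The median log2 difference was 0.04 over the 9 genes and −0.10 over all genes.

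Among the ligands, Ihh (mm10, chr1:74945315-74951672, minus strand) was 14.4, 7.59 and 8.73 NRPKM in the articular controls, in the order Sox9 day 7, Sox9 day 14 and Sox8 Sox9 day 14, an order kept for every gene below. In the growth plate controls it was 72.9, 86.1 and 111. Every growth plate control lay above every articular control, and the log2 difference was 3.04 ± 0.68 (SE, n = 3 libraries per tissue, limma adjusted p = 0.0279). Pthlh (chr6:147252101-147264183) went the other way, at 9.69, 9.70 and 8.71 in articular cartilage and 2.99, 3.36 and 4.61 in the growth plate. The articular controls were all higher, but the difference of −1.17 ± 0.34 was not called (limma adjusted p = 0.0559). Ihh thus exceeded Pthlh in every growth plate control, while their ranges overlapped in articular controls.

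Of the receptors and binders, Pth1r (chr9:110722085-110747145), which encodes the receptor for PTHrP and parathyroid hormone, was 14.98, 19.3 and 27.3 NRPKM in articular controls. In growth plate controls it was 512, 604 and 679, the highest of the 9 genes there, and the log2 difference was 4.83 ± 0.26 (limma adjusted p = 2.15e-05). Gas1 (chr13:60174405-60177365) showed the largest difference of the 9 genes. It was 241, 215 and 400.3 in articular controls, the highest of the 9 genes there, and 1.06, 2.19 and 3.28 in growth plate controls, near the lowest value of the table. The log2 difference was −6.50 ± 0.23 (limma adjusted p = 4.27e-06), on a scale of log2(NRPKM + 1) that understates changes of values this low.

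Ptch1 (chr13:63508328-63573598), the hedgehog receptor, was 52.1, 40.6 and 36.9 NRPKM in articular controls and 78.1, 129 and 114 in growth plate controls. Hhip (chr8:79965851-80058006), a decoy that binds hedgehog ligands, was 6.70, 8.27 and 11.2 against 21.99, 33.6 and 53.0. Both were higher in every growth plate control than in any articular control. Neither was called: the log2 difference was 1.27 ± 0.37 for Ptch1 (limma adjusted p = 0.0568) and 1.87 ± 0.63 for Hhip (limma adjusted p = 0.104).

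The levels of the 3 Gli genes overlapped between tissues. Over articular controls Gli1 (chr10:127329882-127341974) ran from 9.07 to 13.7 NRPKM, Gli2 (chr1:118834132-119053619) from 8.81 to 16.5 and Gli3 (chr13:15463235-15730026) from 9.12 to 12.5. Over growth plate controls they ran from 8.05 to 10.9, from 5.10 to 9.69 and from 9.12 to 13.3. Their log2 differences were −0.20 (95% interval −0.96 to 0.56), −0.64 (−1.29 to 0.01) and 0.04 (−0.52 to 0.60). Gli1, often read as a target of hedgehog signalling, thus did not differ detectably between tissues whose Ihh levels did. Use of strand in counting is unstated, so reads of Gli1 and the opposite-strand gene Arhgap9, and of Gli3 and Gm6556, could not be told apart where they overlap.

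**Figure D1:**
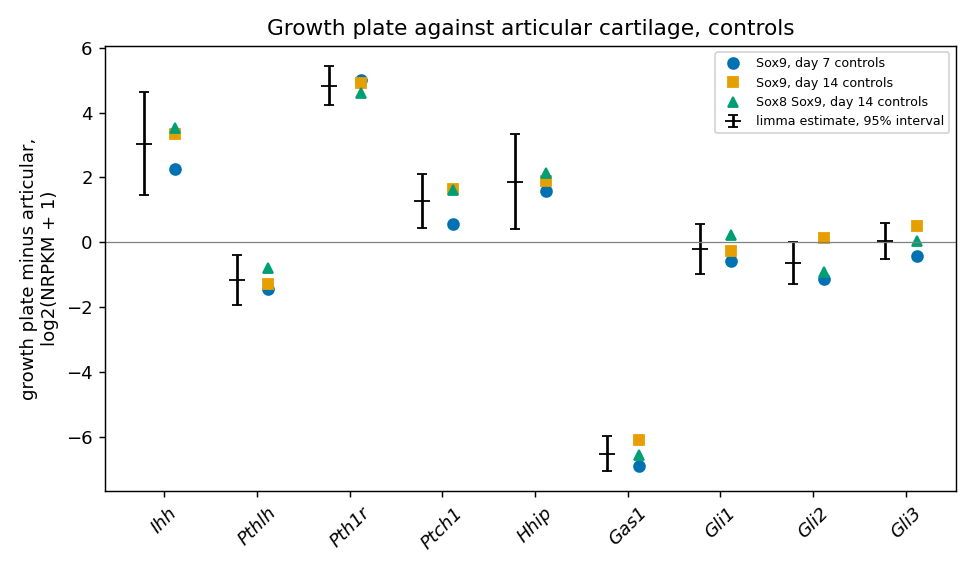
Growth plate minus articular difference of log2(NRPKM + 1) in controls for each of the 9 genes. Coloured points are the 3 sets of floxed alleles and day, and black bars are the limma estimate with its 95% interval. Pth1r (4.83), Ihh (3.04) and Gas1 (−6.50) were called, and the Gli genes lie around 0.

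The order of the levels differed between the tissues. In articular controls Gas1 stood above Ptch1 and Ptch1 above Pth1r with no overlap, and from Pth1r down every neighbour in the order (Gli2, Gli1, Gli3, Ihh, Pthlh, Hhip) overlapped the next. In growth plate controls Pth1r stood apart at the top, Ptch1 and Ihh overlapped, Hhip followed apart from both, and the Gli genes overlapped one another above Pthlh and Gas1. Articular and growth plate captures also differed in other cells' markers, and the part of these in the 3 calls was not tested. The summed superficial zone list was 29691 to 35988 in articular and 118 to 167 in growth plate controls (5 of 7 genes lower), and the chondrocyte matrix list was 2970 to 5282 and 27690 to 45071 (9 of 11 higher). The osteoclast list was 42.1 to 261 and 1059 to 1404 (5 of 6 higher). The fibroblast, tendon and perichondrium list was 1619 to 1828 and 161 to 329 (3 of 8 lower). Neutrophil genes summed to 105 to 1132 and 35.6 to 55.6 (4 of 8 lower). Osteoblast and osteocyte genes summed to 1991 to 4524 and 6225 to 12811 (5 of 11 higher, 1 lower). Of hypertrophic genes 5 of 8 were higher and 1 lower, and of endothelial genes 4 of 6 were higher. Macrophage genes had 2 of 6 higher and 2 lower, and no erythroid or muscle gene was called. In bulk samples such as these, fewer cells of a type and less RNA per cell cannot be told apart.

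The call for Ihh rests on every control library. It was lost when any 1 of the 6 was left out, with an adjusted p of 0.0597 to 0.143, and its log2 difference then ran from 2.80 to 3.43 (its matched library of the other tissue no longer bears on this fit). Leaving out an articular or growth plate mutant of the Sox9 day 7 set brought in calls for Pthlh (adjusted p 0.0158 and 0.0157), Ptch1 (0.0310 and 0.0309) and Hhip (0.0395 and 0.0395), and leaving out one of the Sox8 Sox9 set brought in Ptch1 (0.0360 and 0.0364) and Hhip (0.00617 and 0.00607).

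The comparison of mutants with controls asked how these genes stood once the Cre was present. In the growth plate the ligand Ihh, the receptors Pth1r and Ptch1 and the decoy Hhip were lower in mutants, and Gas1 was higher. These 5 of the 9 genes were called by limma (4 lower, 1 higher), where 10.7% of all genes were called (2.82% lower and 7.92% higher). The groups of 3 did not overlap for 4 of the 9 genes, against 23.9% of all genes (4.96% lower and 19.0% higher). The median log2 change was −0.72 over the 9 genes and 0.20 over all genes.

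Ihh in the growth plate was 26.9, 11.8 and 2.40 NRPKM in the mutants, against the control values of 72.9, 86.1 and 111. Each mutant lay below every control, and the lowest was the Sox8 Sox9 mutant. The log2 change was −3.07 ± 0.66 (SE, n = 3 libraries per group, limma adjusted p = 0.0219). Pthlh was 4.36, 1.02 and 1 in the mutants against 2.99, 3.36 and 4.61, so it was higher in the mutant at day 7 and at or near the lowest value in both day 14 mutants. Its change of −0.72 ± 0.34 was not called (limma adjusted p = 0.200), but without the growth plate mutant of day 7 it was −1.26 with an adjusted p of 0.0164.

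Pth1r was 316, 194 and 195 NRPKM in growth plate mutants, against 512, 604 and 679 in controls. All mutants were below all controls, and the log2 change was −1.37 ± 0.27 (limma adjusted p = 0.0114). Pth1r remained the highest of the 9 genes in growth plate mutants, apart from the next, Ptch1. Hhip was 13.3, 3.86 and 1.12 in mutants against 21.99, 33.6 and 53.0, again without overlap, and its change was −2.73 ± 0.66 (limma adjusted p = 0.0330). Ptch1 was 82.2, 23.7 and 21.7 against 78.1, 129 and 114. Its day 7 mutant lay above its control and inside the control range, while both day 14 mutants lay below all controls, so that the groups overlapped although the change of −1.56 ± 0.41 was called (limma adjusted p = 0.0380).

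Gas1 was the one gene of the 9 called higher. It was 9.18, 12.5 and 19.2 NRPKM in growth plate mutants against 1.06, 2.19 and 3.28 in controls, with no overlap. The log2 change was 2.21 ± 0.22 (limma adjusted p = 0.000722), and the 3 pairs gave 2.30, 2.09 and 2.24. The mutant levels were still far below the 215 NRPKM of the lowest articular control. None of the 3 Gli genes was called in the growth plate, and 2 pairs of Gli1 and 1 pair each of Gli2 and Gli3 had the mutant higher. Gli1 ran from 3.44 to 11.7 in mutants (change −0.23 ± 0.34, limma adjusted p = 0.727), Gli2 from 3.20 to 8.22 (−0.55 ± 0.35, 0.356) and Gli3 from 5.84 to 14.9 (−0.32 ± 0.26, 0.465). Each range overlapped that of the controls.

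**Figure D2:**
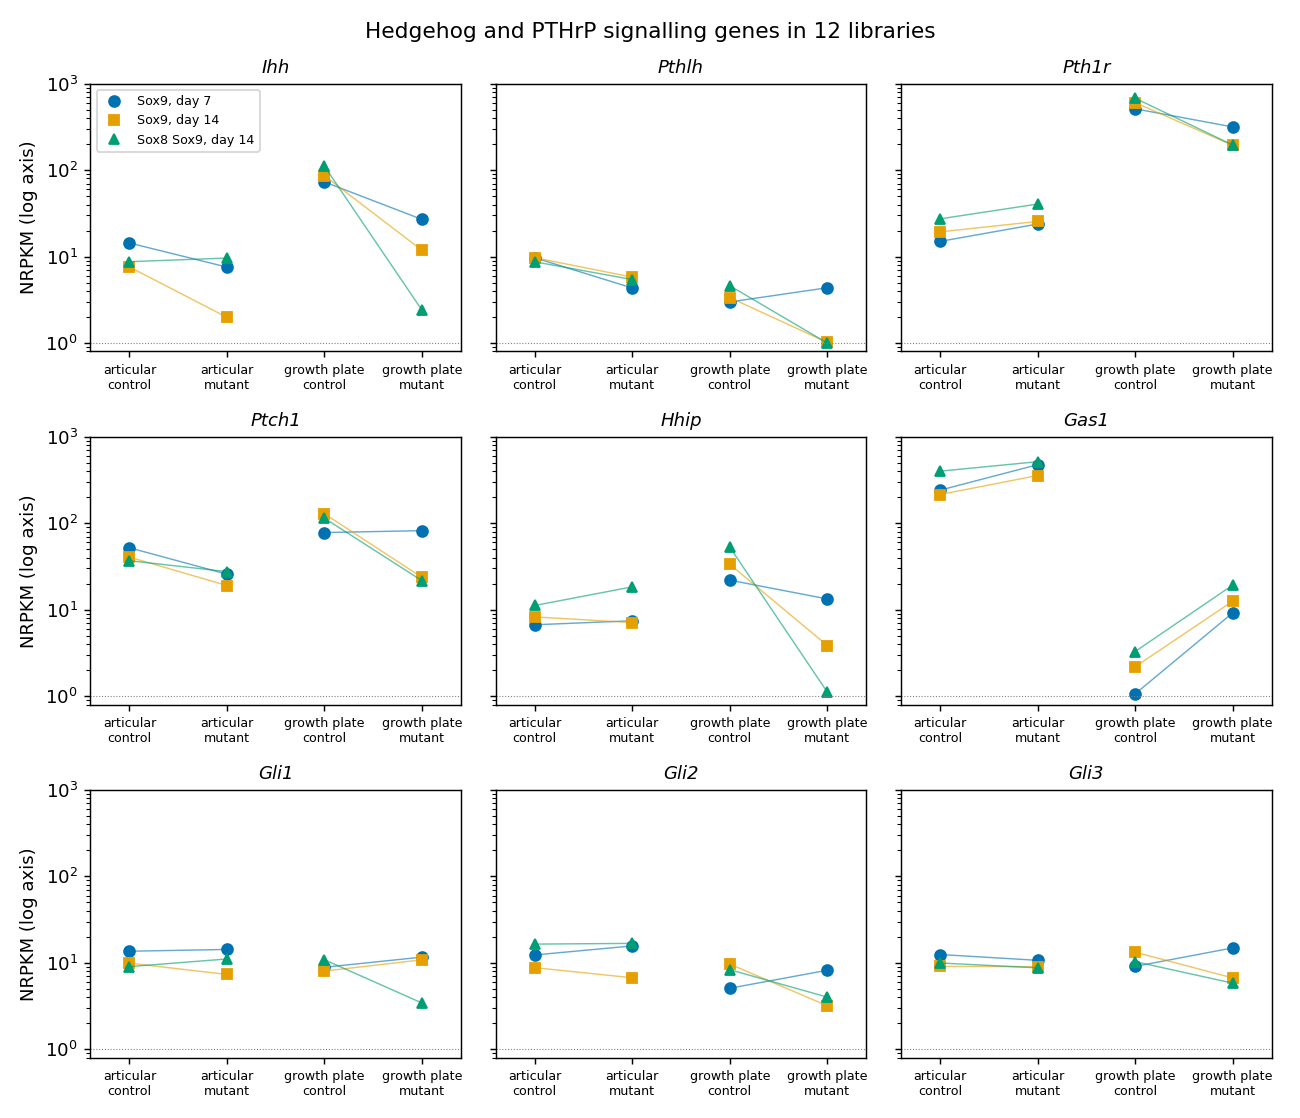
NRPKM of the 9 genes in all 12 libraries, on a log axis. Columns are the 4 groups, colours and shapes the 3 sets of floxed alleles and day, lines join a control to its matched mutant, and the dotted line is the lowest value in the table, 1. In the growth plate, Ihh, Pth1r and Hhip fall in every pair and Gas1 rises in every pair.

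Markers of several cell types moved in the same growth plate libraries. The chondrocyte matrix list fell in 10 of 11 genes (summed NRPKM 27690 to 45071 in controls, 2093 to 6864 in mutants), and the prehypertrophic and hypertrophic list in 5 of 8 (4728 to 8541, 2993 to 3488). In the hypertrophic list 0 genes were called higher and 3 were not called. Its members did not move alike, and Col10a1 was 2774 to 5111 in controls and 15.4 to 71.7 in mutants. Osteoblast and osteocyte genes rose in 5 of 11 (6225 to 12811, 20838 to 26222), fibroblast, tendon and perichondrium genes in 3 of 8 (161 to 329, 491 to 1124), and neutrophil genes in 6 of 8 (35.6 to 55.6, 364 to 1420). Macrophage genes rose in 3 of 6 (61.3 to 138, 183 to 616) and erythroid genes in 1 of 5, while 0 of 6 osteoclast, 0 of 6 endothelial and 0 of 7 muscle genes were called. The superficial zone list had 1 gene higher and 1 lower of 7 and summed to 118 to 167 in controls and 145 to 217 in mutants. In the growth plate controls, 2 of the 8 fibroblast genes, 1 superficial zone gene and 1 neutrophil gene were at the lowest value in every library. The part of any of these in the changes of the 9 genes was not tested.

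The 5 calls did not hold equally. Gas1 and Pth1r were called with any 1 of the 12 libraries left out, and with only the 8 libraries of the Sox9 sets Gas1 alone was called. Ihh was lost without the growth plate control of Sox9 day 14 (adjusted p = 0.0744) or of Sox8 Sox9 (0.0813). Hhip was lost without the growth plate control of day 7 (0.0582), of day 14 (0.0956) or of Sox8 Sox9 (0.116), the growth plate mutant of Sox9 day 14 (0.0589), or the articular control of Sox8 Sox9 (0.0533). Ptch1 was lost without the articular control of day 7 (0.0577), of day 14 (0.0517) or of Sox8 Sox9 (0.0565), the articular mutant of day 7 (0.0528), the growth plate control of day 14 (0.133) or of Sox8 Sox9 (0.135), or the growth plate mutant of day 14 (0.101) or of Sox8 Sox9 (0.140). With a block for each matched pair Ptch1 was also lost (0.0827). With only the 6 growth plate libraries limma called 0 of the 14712 genes, although 2755 had an unadjusted p under 0.05.

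In articular cartilage limma called 0 of the 9 genes, where 0.353% of all genes were called. At an unadjusted p under 0.05 there were 2 of the 9 and 1805 of all genes. Pthlh was 4.33, 5.78 and 5.43 NRPKM in mutants against 9.69, 9.70 and 8.71, and Ptch1 was 25.8, 19.1 and 27.6 against 52.1, 40.6 and 36.9. Pthlh and Ptch1 were the 2 genes of the 9 whose groups did not overlap, against 14.5% of all genes (11.4% higher and 3.09% lower). Both had every mutant below every control. Their log2 changes were −0.75 ± 0.34 (limma adjusted p = 0.405) and −0.82 ± 0.41 (limma adjusted p = 0.459).

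Gas1 and Pth1r stood above the matched control in each articular mutant, without a call. Gas1 was 476, 356 and 516 NRPKM against 241, 215 and 400.3 (change 0.69 ± 0.22, limma adjusted p = 0.242). Pth1r was 23.8, 25.5 and 40.5 against 14.98, 19.3 and 27.3 (0.52 ± 0.27, 0.469). Ihh was 7.56, 1.98 and 9.62 against 14.4, 7.59 and 8.73, lower in both Sox9 mutants and higher in the library labelled Sox8 Sox9 mutant (−0.75 ± 0.66, 0.695). Hhip was 7.46, 7.10 and 18.4 against 6.70, 8.27 and 11.2, and its 95% interval ran from −1.29 to 1.70. The Gli genes changed by −0.02, 0.00 and −0.13 for Gli1, Gli2 and Gli3, with 95% intervals of −0.77 to 0.73, −0.79 to 0.79 and −0.71 to 0.45. In these libraries 2 of 8 hypertrophic genes were called lower and 0 of 11 chondrocyte matrix genes were called, with summed values of 1862 to 2168 in mutants against 2970 to 5282.

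**Figure D3:**
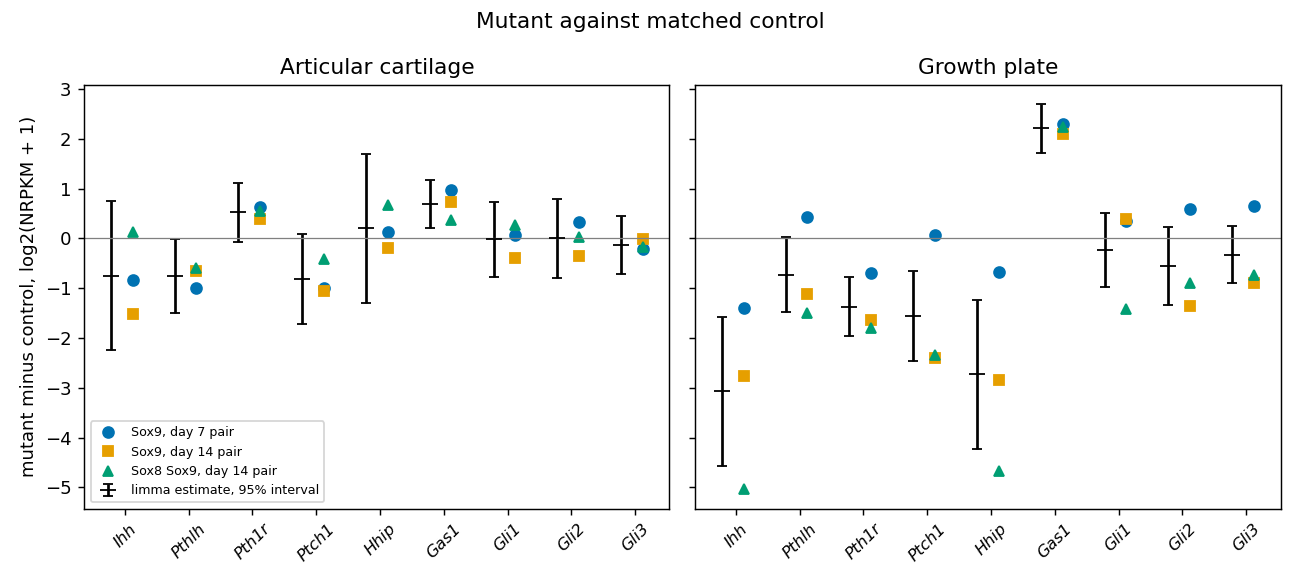
Mutant minus control difference of log2(NRPKM + 1) for the 9 genes, articular cartilage at left and growth plate at right. Coloured points are the 3 matched pairs and black bars the limma estimate with its 95% interval. In the growth plate Ihh (−3.07), Hhip (−2.73), Ptch1 (−1.56) and Pth1r (−1.37) lie below 0 and Gas1 (2.21) above, and in articular cartilage no gene was called.

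Whether the mutant effect itself differed between tissues was tested as an interaction. Limma called 0 of the 9 genes, where 0.184% of all genes were called (0.0476% higher and 0.136% lower), and 4 of the 9 and 1580 of all genes had an unadjusted p under 0.05. The difference, growth plate minus articular, was −1.90 ± 0.37 for Pth1r (limma adjusted p = 0.110), 1.52 ± 0.33 for Gas1 (0.136), −2.93 ± 0.89 for Hhip (0.295) and −2.32 ± 0.96 for Ihh (0.448). For the other 5 genes it lay between −0.74 (Ptch1) and 0.03 (Pthlh). Pth1r mutants stood above control in all 3 articular pairs and below it in all 3 growth plate pairs, as for 1.24% of all genes, and 2.36% were opposite in either sense. A change called in growth plate and not in articular cartilage is therefore not shown to differ between them for any of the 9 genes.

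Days and genotypes had 1 library per cell and are described without a test. In the growth plate the log2 mutant change was lower at day 14 than at day 7 in the Sox9 sets for 8 of the 9 genes, Gli1 excepted (0.04). It was lower by at least 1 for 6 of them, Ihh, Pthlh, Ptch1, Hhip, Gli2 and Gli3, against 14.7% of all genes (6.36% higher), and the medians were −1.54 and −0.29. The Ptch1 change went from 0.07 at day 7 to −2.40 at day 14, the largest such difference of the 9. Gas1 differed by −0.22. All 6 rest on 1 pair per day, and the growth plate mutant of Sox9 day 14 had the highest summed NRPKM of the 12 libraries, 1350275.

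Compared with the Sox9 day 14 pair, which both descriptions share, the Sox8 Sox9 pair had a change lower by at least 1 for 3 genes, Ihh (−2.27), Hhip (−1.84) and Gli1 (−1.81), against 8.65% of all genes (10.9% higher). Ptch1 and Pth1r differed by 0.05 and −0.16. In this Sox8 Sox9 mutant growth plate Ihh and Hhip, at 2.40 and 1.12 NRPKM, stood below the articular mutant of the same set, at 9.62 and 18.4, the reverse of their order in the controls. Ptch1 was reversed in the same set (21.7 against 27.6), and Hhip also in the Sox9 day 14 mutants (3.86 against 7.10). Gli1 and Gli3 changed order too in the Sox8 Sox9 set, and Gli1, Gli2 and Gli3 in the Sox9 day 14 set. At Sox9 day 7 Gli3 and Pthlh did, with Pthlh at 4.36 against 4.33 in mutants. Control levels of the Gli genes overlapped between tissues. In articular cartilage no gene of the 9 differed by 1 or more between days, where 9.35% of all genes were lower and 4.60% higher by that much. Between genotypes 1 did, Ihh at 1.65, where 8.25% of all genes were higher and 7.05% lower by at least 1. This difference and the reversed orders of the Sox8 Sox9 set draw on the articular library labelled Sox8 Sox9 mutant. Sox9 in that library was not lower than in its control.

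The wider pathway was taken from 5 lists of 62 genes, of which 53 are in the table. In the controls limma called 12 of the 53 between tissues (22.6% against 12.9% of all genes), 5 higher and 7 lower in growth plate, and the median log2 difference was −0.22. Cdon and Boc were, like Gas1, higher in articular cartilage. Cdon was 152, 146 and 122 NRPKM in articular controls and 6.64, 5.44 and 6.93 in growth plate controls, with no overlap and a log2 difference of −4.27 ± 0.17 (limma adjusted p = 5.38e-06). Boc was 19.1, 20.5 and 65.2 against 5.82, 13.6 and 9.89, also without overlap (−1.57 ± 0.35, limma adjusted p = 0.0225, or 0.0524 after quantile normalisation). The glypican genes Gpc3, Gpc4 and Gpc6 were not called.

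**Figure D4:**
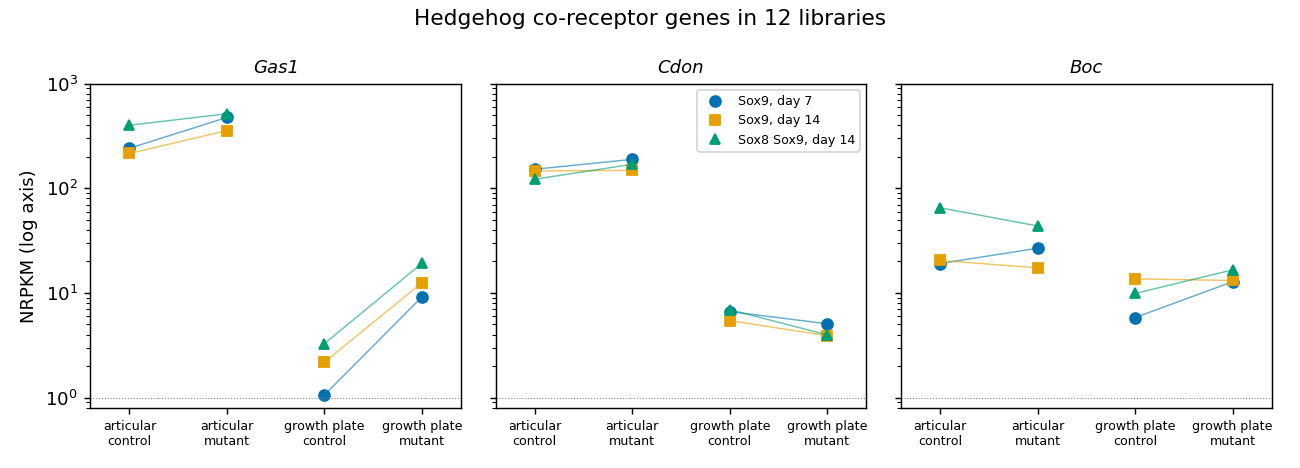
NRPKM of the hedgehog co-receptor genes Gas1, Cdon and Boc in all 12 libraries, on a log axis. Colours and shapes are the 3 sets, lines join matched control and mutant, and the dotted line is the lowest value, 1. Articular controls lie above growth plate controls for all 3 genes, and Gas1 rises in the growth plate mutants, where Cdon and Boc were not called.

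Of 5 measured genes for hedgehog release, 2 were higher in growth plate controls. Scube2, whose product helps release lipid-bearing hedgehog from the cell, was at the lowest value in every articular library, and at 11.4, 3.98 and 11.3 NRPKM in growth plate controls (limma adjusted p = 0.00173). Scube3 was also at the lowest value in every articular library and at 6.36, 2.54 and 3.90 in growth plate controls (limma adjusted p = 0.0347). Of 13 genes of hedgehog transduction, Kif7, a ciliary kinesin that acts on Gli proteins, was higher in growth plate (1.22 ± 0.21, limma adjusted p = 0.00668), and Gpr161 and Arrb2 were lower (−1.44 and −1.09). Growth plate controls were near the lowest value for both, at 1.04, 1 and 1.12 NRPKM for Gpr161 and 1.02, 2.03 and 2.19 for Arrb2. Of 19 genes on the list for PTHrP receptor transduction, Creb3l1 (1.40) and Mef2c (0.87) were higher and Sik2 (−0.87) and Zfp521 (−0.95) lower. Mef2c is also on the prehypertrophic and hypertrophic marker list. Of 11 primary cilium genes 1 was called, Ift172 (−0.87).

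The 12 calls between control tissues did not hold equally. Cdon, Scube2 and Creb3l1 were called with any 1 of the 12 libraries left out. Only the 6 control libraries left Cdon (limma adjusted p = 0.0125) and Creb3l1 (0.0423) as the sole calls, with Scube2 at 0.0597. Fitted on the Sox9 sets alone, Cdon, Scube2, Kif7, Gpr161 and Creb3l1 stayed called. Without a replicate block Creb3l1 (0.131), Arrb2 (0.0688), Ift172 (0.111), Sik2 (0.103) and Zfp521 (0.106) were lost. A block for each set, in place of each genotype and day, lost Arrb2 (0.0541) and Zfp521 (0.0582). Kif7 was lost without either Sox9 day 7 control (adjusted p 0.0523 and 0.0543), Arrb2 without either Sox9 day 14 control (0.0718 and 0.0675), and Gpr161 without any Sox9 control (0.0617 to 0.0954). Boc was lost without a Sox9 day 7 library of either tissue, control or mutant, or a Sox8 Sox9 control (0.0523 to 0.117). Ift172 (0.0575 to 0.169), Sik2 (0.0573 to 0.208) and Mef2c (0.0765 to 0.222) were lost without any 1 of the 6 controls or either Sox9 day 7 mutant, and Scube3 without any 1 of the 6 controls or either Sox9 day 14 mutant (0.0619 to 0.232). Zfp521 was lost without a control of Sox9 day 7 or Sox8 Sox9 or any Sox9 mutant (0.0655 to 0.240). Quantile normalisation ended the calls of Ift172 (0.0509), Sik2 (0.0537) and Zfp521 (0.0769), median ratio scaling that of Zfp521 (0.0641), and log2(value + 5) those of Scube3 (0.0586) and Mef2c (0.0503).

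In growth plate mutants limma called 7 of the 53 (13.2% against 10.7% of all genes), 3 higher and 4 lower, with a median of 0.16. The release genes fell in 3 of 5, and these were Scube2, Scube1 and Disp1. Scube1 was 8.05, 6.15 and 4.26 NRPKM in mutants against 18.3, 28.3 and 31.9 in controls (−1.93 ± 0.34, limma adjusted p = 0.00834). Scube2 was at 1, 1.57 and 1 against 11.4, 3.98 and 11.3, so 2 mutants were at the lowest value (limma adjusted p = 0.00430). Disp1, which encodes a transporter that exports hedgehog, was 5.17, 4.95 and 8.89 against 8.10, 13.2 and 21.99 (−1.01 ± 0.22, limma adjusted p = 0.0185). Kif7 fell (−0.84, limma adjusted p = 0.0477), and Arrb2, which encodes a beta-arrestin that binds activated receptors, rose (1.90 ± 0.33, limma adjusted p = 0.00731).

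Of 19 genes on the list for PTHrP receptor transduction 2 were called, where 10.7% of all genes were called. The list median was 0.21 against 0.20 over all genes, so the list moved like genes at large. The 2 were Adcy6, an adenylyl cyclase gene, and Prkaca, which encodes a catalytic subunit of protein kinase A. They rose by 0.74 and 0.61 (limma adjusted p = 0.0195 and 0.0212). Neither was called after median ratio scaling (0.0569 and 0.100) or quantile normalisation (0.0809 and 0.0753). Scube1, Scube2 and Arrb2 were called with any 1 library left out. Kif7 was called in 3 of these 12 fits, and lost in all but those without the articular mutant of Sox9 day 14 or of Sox8 Sox9 or the growth plate control of Sox9 day 14 (adjusted p 0.0543 to 0.194), as well as with a block for each matched pair (0.0769) or no block (0.0661). Disp1, Adcy6 and Prkaca were each called in 8 of the 12. Disp1 was lost without the growth plate mutant of day 7 or of Sox8 Sox9, or the growth plate control of day 14 or of Sox8 Sox9 (0.0541 to 0.0786). Adcy6 was lost without the growth plate control of day 7 or day 14, or the growth plate mutant of day 7 or of Sox8 Sox9 (0.0537 to 0.0728). Prkaca was lost without any growth plate control or the growth plate mutant of day 7 (0.0601 to 0.0753). With only the Sox9 sets, or only the 6 growth plate libraries, none of the 7 was called. No co-receptor or primary cilium gene was called in these mutants. In articular mutants limma called 0 of the 53, with a median of 0.06, and Scube1 there was 14.9, 10.96 and 24.7 NRPKM against 50.8, 32.6 and 29.0. The interaction called 0 of the 53.

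**Figure D5:**
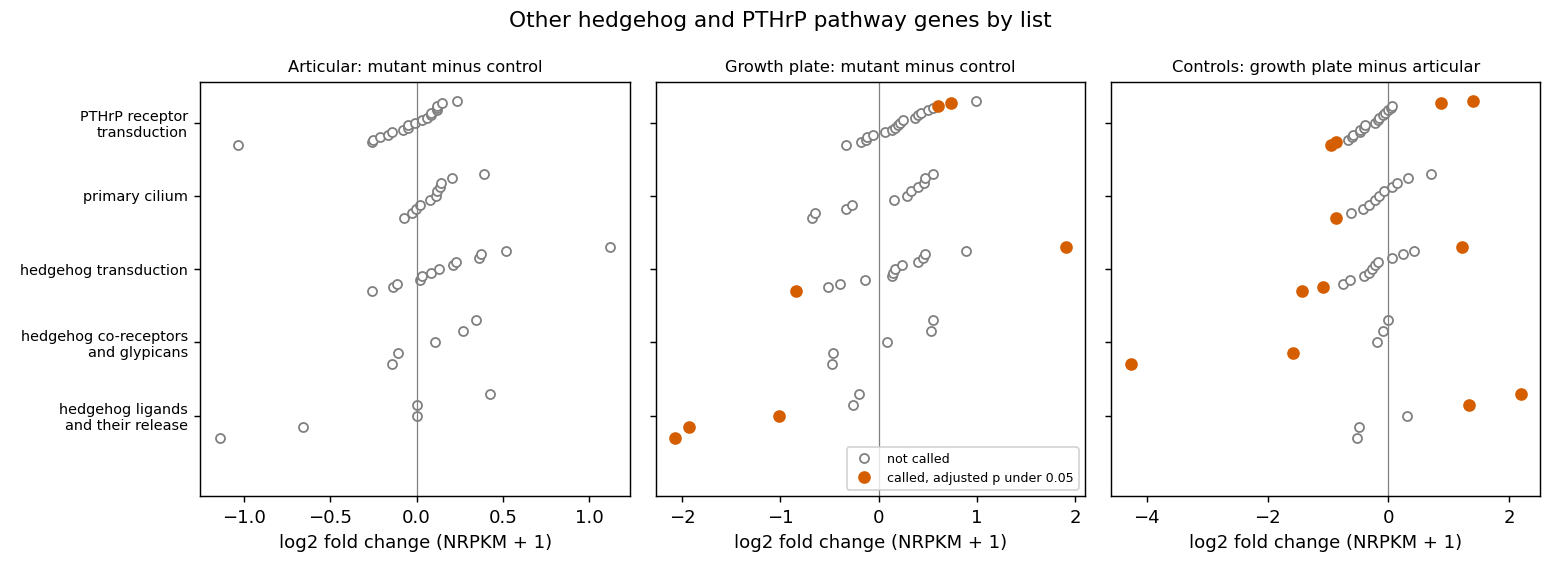
Log2 fold change of the 53 other pathway genes by list, for mutant against control in articular cartilage and in growth plate and for growth plate against articular cartilage in controls. Each point is a gene, filled where called by limma at an adjusted p under 0.05. Called genes number 0, 7 and 12 from left to right, and Cdon is the lowest point at right (−4.27).

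The genes whose profile over the 12 libraries was most like that of each of the 9 were found by the root mean square difference of centred log2 values, divided by the SD of the member, among 4162 or 4163 genes with a mean of at least 10. For Ihh these were Mia1 (0.23 of the SD of Ihh), Wnk4 (0.36) and Papss2 (0.40). For Pth1r they were Slc13a5 (0.24), R3hdml (0.25) and Fscn1 (0.26), and for Gas1 Tnxb (0.24), Igfbp6 (0.27) and Creb5 (0.27). For Pthlh they included Zbtb20 (0.33) and Ndrg2 (0.37). Ptch1, nearest to Shisa4 (0.43), MIA1 (0.47, a row of its own in the table beside Mia1) and Trpv4 (0.47), and Hhip, nearest to Ldlrad3 (0.48), Peg3 (0.49) and Tspan13 (0.49), had no profile as near. For the Gli genes the nearest were Nfix for Gli2 (0.42), Ascc2 for Gli3 (0.50) and Bcl9l for Gli1 (0.57). Pthlh, Gli1 and Gli2 have a mean under 10 and so could not be listed for another gene, and none of the other 6 was.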

How the data were processed

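Values are RPKM that the authors normalised again, called NRPKM per the file headers, with 1 column for each library. The labels and header name no aligner, counter, annotation or method for the second normalisation. Reads were placed on mm10, per the submitters' processing notes. No value lies below 1, and 1299 to 2823 genes per library equal 1. Depth is unknown, so no counting interval is given. The most abundant gene held 24.0 to 45.1% of a library's summed values. Coordinates come from GENCODE M21, which 14293 of 14712 genes matched by identifier.

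Limma 3.58.1 (R 4.3.3) was fitted to log2(NRPKM + 1) of all 12 libraries, with a trended, robust empirical Bayes step (statmod 1.5.0). The model for mutant effects held the set (floxed alleles and day) and the 4 combinations of tissue and Cre. Control tissues and the interaction were fitted within each genotype and day. Calls were made at a Benjamini-Hochberg p under 0.05, adjusted over all genes. The fits were tested on simulated data with independent noise and the same change in every library of a group. Those data held no cut at 1, no shared animals and no change that differed between sets, so they do not test these. Labels number no replicates, and mutants were matched to controls by alleles, day and tissue.

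Members and lists were chosen with earlier results of these data known. Named genes are the members, up to 3 called genes of each list and comparison with the largest changes, and the 3 most similar profiles per member, of which 1 is not reported here. Further called or uncalled list genes (Sik2, the glypicans and articular Scube1 among them) were named after their values were seen.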

Additional observations from a re-analysis of the deposited data

Results flagged for a closer look

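Pth1r is listed because its mutants stood above the matched control in 3 of 3 articular pairs (log2 0.63, 0.38 and 0.55) and below it in 3 of 3 growth plate pairs (−0.69, −1.64 and −1.79). The difference of the mutant effect, growth plate minus articular, was −1.90 ± 0.37 (SE) in the limma interaction, with an unadjusted p of 0.000732 and an adjusted p of 0.110, so it was not called. Of all genes, 1.24% (182) were above control in all 3 articular pairs and below in all 3 growth plate pairs, and 2.36% showed opposite directions either way. The articular pair of the Sox8 Sox9 set is among the 3, and Sox9 was not lower in its mutant.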

How the results depend on the processing

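The alternatives were log2(value + 5), genes with a mean of at least 5, quantile normalisation, median ratio scaling, other blocks, fewer libraries, and leaving out each library in turn. Articular mutants and the interaction kept 0 of the 9 genes called under all of them. In growth plate mutants 5 became 0 with only the 6 growth plate libraries, 1 with only the Sox9 sets, and 2 to 6 with 1 library left out; the fits hold fewer samples. In controls 3 became 5 with log2(value + 5) and 2 to 6 with 1 library left out; the cause was not tested. The same 5 growth plate genes were called with no replicate block, and 4 with a replicate block for each matched pair. In controls no replicate block gave 4.

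Directions turned for uncalled genes only. The articular Gli2 change was −0.11 under quantile normalisation, −0.14 under median ratio scaling and −0.0090 in the Sox9 sets, where that of Hhip was −0.029. In the Sox9 sets Gli1 was 0.37 in growth plate mutants and 0.53 in the interaction. The Pthlh interaction was −0.024 with quantiles equalised and −0.011 with median ratios. With 1 library left out the articular changes ran from −0.26 to 0.48 for Hhip, −0.16 to 0.30 for Gli2 and −0.22 to 0.24 for Gli1. The growth plate change of Gli1 ran from −0.57 to 0.27, and the control difference of Gli3 from −0.18 to 0.27. The interaction ran from −0.55 to 0.33 for Pthlh, −0.49 to 0.033 for Gli3 and −0.66 to 0.32 for Gli1.

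Scaling moved the split of all calls. In growth plate mutants 1165 higher and 415 lower became 726 and 741 after median ratio scaling and 606 and 679 after quantile normalisation. In articular mutants 23 and 29 became 12 and 34, and 11 and 36. In controls 627 and 1269 became 913 and 1059, and 899 and 1003. Genes called in all were 52 in articular mutants (2 to 69 under the other settings), 1580 in growth plate mutants (0 to 1482), 1896 in controls (866 to 1990) and 27 for the interaction (0 to 40). With 1 library left out they were 6 to 101, 658 to 1927, 894 to 2068 and 0 to 4. With values cut at 1 and depth unknown, changes of low genes such as Pthlh and Gas1 in the growth plate are imprecise.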
